A study of Mus musculus with 4 samples.

Results

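The 9 transcripts studied here are products of the secretory acinar and demilune cells of mouse salivary glands, followed through 4 single-cell libraries: Dcpp1, Dcpp2, Dcpp3, Mucl2, Prol1, Scgb2b27, Scgb1b27, Aqp5 and Bhlha15. They were taken by name, and all 9 of 9 were found among the 30406 gene IDs that the 4 feature lists share. One library came from glands 14 days after a metal clip was placed on their main ducts (ligated), and 3 came from glands 14 days after mock surgery, in which the ducts were found but not clipped (mock 1, mock 2 and mock 3). All animals were female C57BL6/J mice, and their ages were not given in the sources used here. Submandibular and sublingual glands were collected together, in proportions that the labels do not give, and the suspensions were depleted of EpCAM-bearing epithelial cells, of Ter119-bearing red cells and of dead cells, so the secretory cells described here are those that escaped the depletion. The labels do not say that the libraries came from separate animals, so the p-values measure the spread between libraries, which may be technical.

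Acinar cells synthesise the proteins and drive the fluid of saliva, store their products in granules and release them into ducts that lead to the mouth. The Dcpp genes, whose name stands for demilune cell and parotid protein, encode small secreted proteins of the serous demilunes that cap the mucous endpieces of the mouse sublingual gland and of the parotid. Mucl2 encodes a mucin-like secreted protein, Prol1 the mouse submandibular mucin also called Muc10, and Scgb1b27 and Scgb2b27 the alpha and beta secretoglobin subunits of salivary androgen-binding protein. Aqp5 is the apical water channel of acinar cells, and Bhlha15, also called Mist1, is a basic helix-loop-helix transcription factor of secretory cells that binds E-box sequences. Clipping the main duct blocks the outflow of saliva and is a standard model of acinar loss in this gland.

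The ligated library held 13790 barcodes, against 4798, 9627 and 13194 in mock 1, 2 and 3. Their total counts of unique molecular identifiers (UMIs) were 80187555 in the ligated and 29897488, 47182114 and 56932041 in the mock libraries. Any pair of libraries shared between 11 and 61 barcodes. Clustering was done with the 9 genes left out, so that no class of cells rests on them. It gave 29 acinar-like cells in ligated glands, against 24, 71 and 117 in mock glands 1, 2 and 3, led by Scgb2b26, Pip, Car6, Wfdc12, Wfdc18 and Bpifa2. Of the 9 acinar markers present in the files, 7 had UMIs in the ligated acinar-like cells and 6 or 7 in each mock library, with Cst10 and Amy1 at 0 in all 4. Their summed level there was 46827 CPM (UMIs per 1000000 UMIs of the cells in question) in the ligated library, against 27141, 17845 and 18780 CPM in the mock libraries. Car6 made up most of the ligated sum, at 36797 CPM, against 10833, 8580 and 8562 CPM in the mock libraries. Lpo, Slc12a2 and Ano1 were also higher there than in every mock library, and Pip was within their range. Bpifa2 and Smgc were lower, at 16.2 and 8.10 CPM, against at least 728 and 53.2 CPM in the mock libraries. The ligated acinar-like cells were shallower, at a median of 1255 UMIs, against 2874, 5827 and 6071 in the mock libraries. They also carried more UMIs of basal and duct markers: 6 of 7 basal or myoepithelial markers summed to 1134 CPM in the ligated library, against 21.3, 0 and 5.20 CPM from 2, 0 and 3 markers in the mock libraries, and 5 of 10 duct markers summed to 1434 CPM, against 299, 345 and 705 CPM from 5, 7 and 8. Their part in the results below was not tested. All epithelial-like cells together (acinar-like, duct-like and basal or myoepithelial-like) numbered 360 in the ligated and 231, 705 and 895 in the mock libraries, and acinar-like cells made up 8.06% of them in the ligated and 10.4%, 10.1% and 13.1% in the mock libraries. Since an antibody removed most epithelial cells, these shares are not the shares of the gland. Mock 2 and mock 3 carry a later Cell Ranger version in their file headers (7.0.0) than the ligated library and mock 1 (6.0.1), and the 9 genes held a larger share of non-epithelial UMIs there than in the ligated library and mock 1, as given next.

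The 9 genes took up a very large part of the RNA of these cells. They held 49.5% of all UMIs of acinar-like cells in the ligated library, against 67.8%, 76.2% and 77.5% in mock 1, 2 and 3. Outside the acinar-like cells they were scarce. In duct-like cells the share was 0.307% in the ligated and 0.652%, 3.20% and 4.15% in the mock libraries, and in all named non-epithelial cells it was 0.0517% in the ligated and 0.0471%, 0.198% and 0.265% in the mock libraries. Levels below are in CPM. They are not corrected for transcript length and 10x counting reads transcript ends, so levels of different genes are not compared as amounts per length. In so concentrated a transcriptome a change in 1 product moves the CPM of every other gene. With 29 and 24 acinar-like cells in the ligated library and mock 1, values in acinar-like cells are given without a test. The tests were made on the summed counts of all epithelial-like cells, with edgeR's quasi-likelihood test over 1 ligated and 3 mock libraries and Benjamini-Hochberg adjustment over all genes tested. A permutation of 1 library against 3 cannot give a p below 0.25.

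The Dcpp genes were almost absent from the ligated epithelial-like cells. How much sublingual gland each library held is not given, so a difference in gland content and a difference in expression cannot be told apart for these genes or for Bpifa2. Dcpp3 measured 121.5 CPM in ligated acinar-like cells, against 59459, 13803 and 14774 CPM in mock 1, 2 and 3. Dcpp2 measured 64.8 CPM in ligated acinar-like cells, against 39191, 9477 and 10758 CPM in the mock libraries. Dcpp1 measured 64.8 CPM in ligated acinar-like cells, against 24174, 3373 and 6920 CPM in the mock libraries. For each of the 3 genes the ligated library lay far below the lowest mock library. The ligated values rest on 8, 8 and 15 UMIs of Dcpp1, Dcpp2 and Dcpp3, and 1 cell of 749 UMIs holds 29 of these 31 UMIs. Without it, Dcpp2 and Dcpp3 were each at 8.15 CPM and Dcpp1 was at 0. Single cells weigh on the mock values too, as 1 cell holds 6071 of the 11508 Dcpp UMIs in mock 1, 1 holds 6351 of 13519 in mock 2 and 1 holds 7625 of 31202 in mock 3. Without the cell highest in it, Dcpp3 measured 31611, 7784 and 11546 CPM in the mock libraries.

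**Figure D1:**
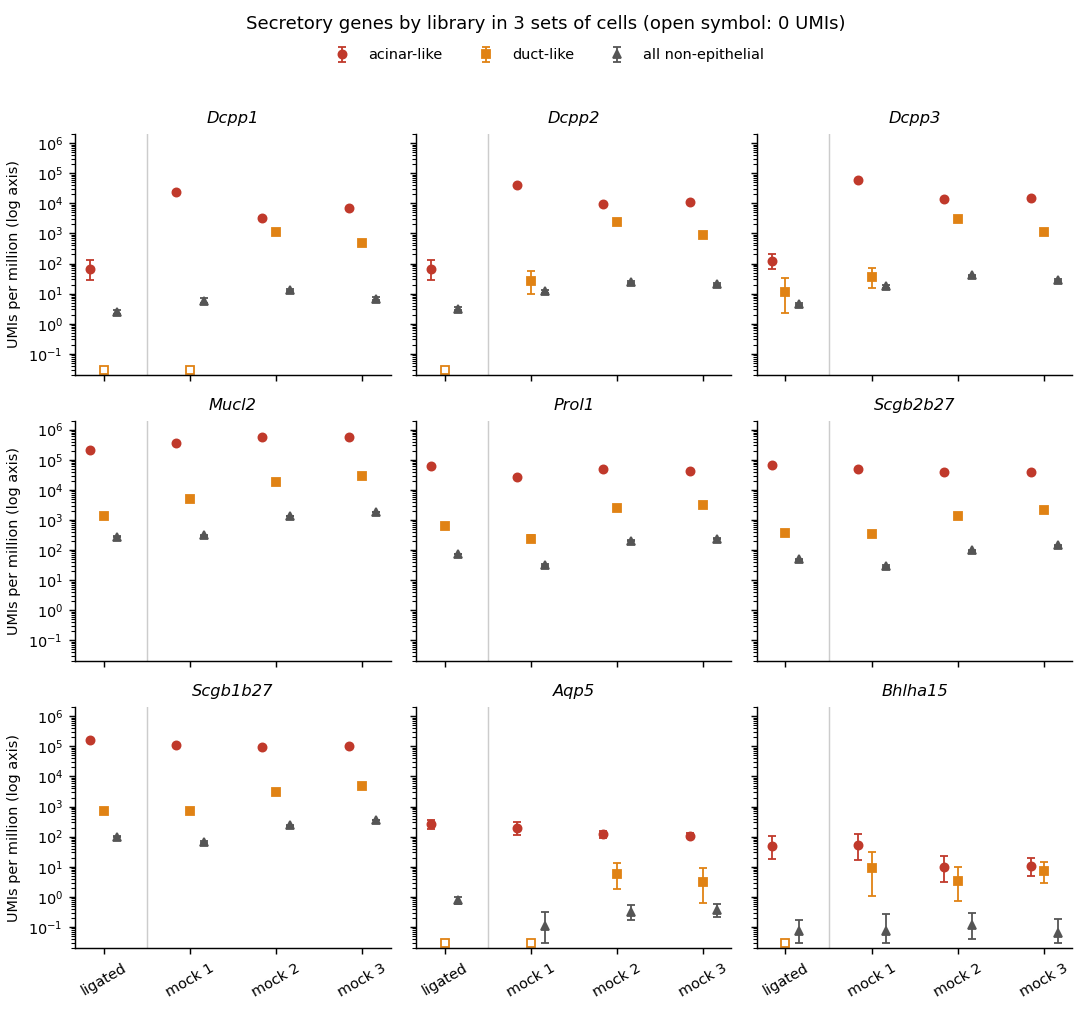
CPM on a log axis for each of the 9 genes, by library, in acinar-like, duct-like and all non-epithelial cells. Bars are exact 95% Poisson intervals, which cover counting error only, and open symbols mark 0 UMIs. The 3 Dcpp genes in acinar-like cells lie at 64.8 to 121.5 in the ligated library and at 3373 or more in every mock library, while the other 6 genes differ far less.

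The 3 genes lie together on chromosome 17 of mm10. In GENCODE vM21 Dcpp1 spans chr17:23880876-23882853, Dcpp2 chr17:23880880-23900788 and Dcpp3 chr17:23917458-23919441, all on the plus strand, so that the cluster covers 38566 bases. One annotated Dcpp2 transcript begins inside Dcpp1, and the annotated spans overlap by 1974 of the 1978 bases of Dcpp1. The main transcripts are 90.0% identical between Dcpp1 and Dcpp2, 93.4% between Dcpp1 and Dcpp3 and 91.8% between Dcpp2 and Dcpp3. How the counting divided reads among them is therefore uncertain, and the 3 genes are best read as 1 family. Their promoters are also near copies, which is why they are shown, as the 250 bases before each gene's start from RefSeq on GRCm38.p6, plus strand. Capitals mark the E-box, CANNTG, the only one in each window.
Dcpp1 promoter chr17:23880626-23880875: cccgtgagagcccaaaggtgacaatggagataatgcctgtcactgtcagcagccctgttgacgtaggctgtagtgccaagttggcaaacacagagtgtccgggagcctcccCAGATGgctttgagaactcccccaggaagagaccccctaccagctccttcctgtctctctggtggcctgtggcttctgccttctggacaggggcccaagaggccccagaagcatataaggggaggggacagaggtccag
Dcpp2 promoter chr17:23898472-23898721: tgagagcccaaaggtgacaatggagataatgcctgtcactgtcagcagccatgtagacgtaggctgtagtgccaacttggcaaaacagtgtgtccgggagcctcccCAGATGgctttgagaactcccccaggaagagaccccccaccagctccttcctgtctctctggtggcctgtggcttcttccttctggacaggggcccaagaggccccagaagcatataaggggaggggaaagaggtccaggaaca
Dcpp3 promoter chr17:23917208-23917457: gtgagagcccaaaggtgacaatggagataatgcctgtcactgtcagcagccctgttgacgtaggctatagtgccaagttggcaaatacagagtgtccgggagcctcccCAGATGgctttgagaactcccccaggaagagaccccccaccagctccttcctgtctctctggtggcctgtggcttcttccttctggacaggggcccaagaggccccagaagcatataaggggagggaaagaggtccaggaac
The windows are 93.3% identical between Dcpp1 and Dcpp2, 94.9% between Dcpp1 and Dcpp3 and 96.4% between Dcpp2 and Dcpp3. Each holds the E-box CAGATG, beginning 139, 144 and 142 bases before the start of Dcpp1, Dcpp2 and Dcpp3. The motif reads the same on both strands in its fixed letters, and 66.2% of 32851 mouse promoter windows of this length hold a CANNTG, so its presence is a description. Neither CATATG nor CAGCTG, found in 3.46% and 13.0% of windows, occurs in them.

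In the fit over all epithelial-like cells, the Dcpp genes passed the test. Of 9318 genes tested, 46 were called at an adjusted p of 0.05 or less (0.494%), and 4 of these were lower in the ligated library (0.0429%). The 3 Dcpp genes are 3 of those 4, and no other of the 9 genes was called. Without mock 1, 2519 of 9565 genes and 7 of the 9 were called. Dcpp2 measured 14.5 CPM in ligated epithelial-like cells, against 8157, 4571 and 5609 CPM in the mock libraries, and fell by 9.18 on the log2 scale (SE 0.66, edgeR adjusted p = 0.00681). Dcpp3 measured 28.9 CPM in ligated epithelial-like cells, against 12376, 6418 and 7666 CPM in the mock libraries, and fell by 8.71 (SE 0.66, edgeR adjusted p = 0.00681). Dcpp1 measured 11.6 CPM in ligated epithelial-like cells, against 5023, 1815 and 3570 CPM in the mock libraries, and fell by 8.69 (SE 0.90, edgeR adjusted p = 0.0209). The ligated library lay below all 3 mock libraries for each. Among all 9318 fold changes the 3 genes ranked 2nd, 4th and 5th from the lowest. The call depends on how epithelial cells were chosen. When cells were taken by 3 or more UMIs of the general epithelial markers, whatever their cluster, the fold changes were -7.46 for Dcpp1, -7.67 for Dcpp2 and -7.55 for Dcpp3, and none passed (edgeR adjusted p = 0.268, 0.196 and 0.207).

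**Figure D2:**
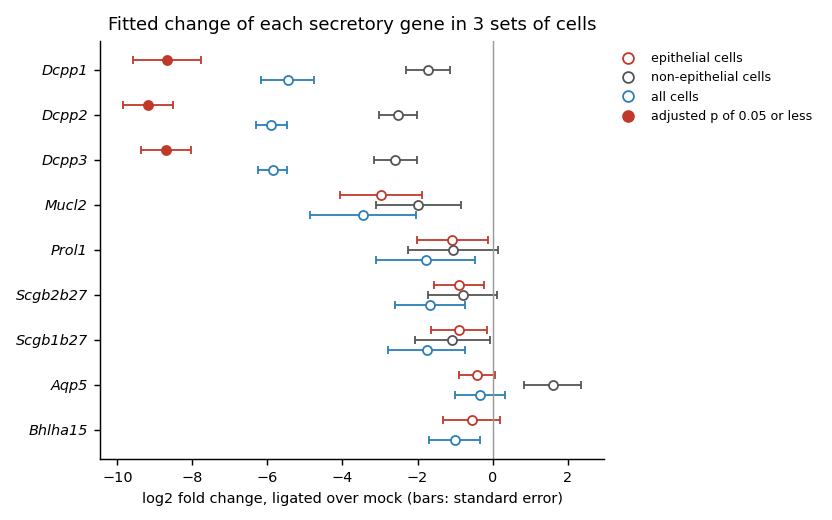
Fitted log2 fold change, ligated over mock, of each gene in epithelial cells, non-epithelial cells and all cells, with the standard error as the bar. Filled points passed an adjusted p of 0.05, and only the Dcpp genes in epithelial cells did, at -9.18 to -8.69. Bhlha15 was too low to be tested in non-epithelial cells.

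Mucl2 was the most abundant of the 9 genes by UMIs in every library, and its share of the acinar transcriptome was lower in the ligated gland. It measured 204200 CPM in ligated acinar-like cells, against 370084, 555559 and 557636 CPM in mock 1, 2 and 3. The ligated value lay below all 3 mock values, and mock 1 lay between it and the other two. A single deep cell of 63932 UMIs holds 51.8% of the UMIs of the ligated acinar-like cells, and without it Mucl2 measured 20.5% of UMIs, against 20.4% with it. In the fit over epithelial-like cells Mucl2 measured 37541 CPM in the ligated and 79584, 199852 and 282597 CPM in the mock libraries, with a log2 fold change of -2.97 (SE 1.09) that did not pass (edgeR adjusted p = 0.323). DESeq2 called it (adjusted p = 0.02), as did the fit without the filter on low counts (edgeR adjusted p = 0.0261). It was also called with a term for the Cell Ranger version and without mock 1 (log2 fold change -3.39 without mock 1). In both of these fits the spread comes from mock 2 and mock 3 alone. Mucl2 lies at chr15:103895855-103899312 on the minus strand.

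As shares of all UMIs, Prol1 and the secretoglobins stood the other way in acinar-like cells. Prol1 measured 61151 CPM in ligated acinar-like cells, against 26938, 47765 and 43387 CPM in mock 1, 2 and 3. Scgb1b27 measured 163149 CPM in ligated acinar-like cells, against 108650, 93060 and 102361 CPM in the mock libraries. Scgb2b27 measured 65477 CPM in ligated acinar-like cells, against 48978, 38355 and 38951 CPM in the mock libraries. For each of the 3 the share in the ligated library lay above that in the highest mock library. All the genes studied here together held 49.5% of acinar-like UMIs in the ligated library, against 67.8%, 76.2% and 77.5% in the mock libraries. The UMIs of all other genes thus made up a larger share in the ligated library. Higher shares of all UMIs therefore do not show that these 3 genes were higher relative to the UMIs of other genes. The deepest ligated cell weighs on the secretoglobins. Without the cell highest in each gene, Scgb1b27 measured 115275 CPM in the ligated library, still above the 3 mock libraries, while Scgb2b27 measured 42890 CPM, within their range, and Prol1 measured 61226 CPM. The 2 secretoglobin genes lie head to head on chromosome 7, Scgb2b27 at chr7:34011921-34013942 on the minus strand and Scgb1b27 at chr7:34021483-34022881 on the plus strand, with 7541 bases between their starts. Of acinar-like cells with a UMI of either, 25 of 27 had both in the ligated library, and 18 of 20, 68 of 70 and 108 of 115 had both in the mock libraries. Prol1 lies at chr5:88317312-88328814 on the plus strand.

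In all epithelial-like cells, where the acinar-like cells are diluted by the more numerous duct-like cells, these 3 genes were within the mock range. Prol1 measured 11401 CPM in the ligated and 5727, 17654 and 22442 CPM in the mock libraries. Scgb1b27 measured 29553 CPM in the ligated and 22953, 33453 and 51572 CPM in the mock libraries, and Scgb2b27 measured 11927 CPM in the ligated and 10362, 13830 and 19778 CPM in the mock libraries. Their log2 fold changes of -1.07, -0.90 and -0.90 did not pass (edgeR adjusted p = 0.615, 0.598 and 0.556). Without mock 1 all 3 were called lower, with log2 fold changes of -1.52 for Prol1, -1.24 for Scgb1b27 and -1.21 for Scgb2b27. With a term for the Cell Ranger version Prol1 was called higher, at 0.87, so its direction depends on which mock libraries it is set against. Both fits take their spread from mock 2 and mock 3 alone. Fewer acinar cells and less RNA per cell cannot be told apart in these sums.

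Aqp5 and Bhlha15 were sparse. Aqp5 measured 259 CPM in ligated acinar-like cells, against 192, 120 and 107 CPM in mock 1, 2 and 3, from 32 UMIs in the ligated and 18, 61 and 103 UMIs in the mock libraries. The ligated value lay above the mock values, but its exact 95% Poisson interval, 177 to 366 CPM, overlaps that of mock 1, 114 to 304 CPM, and 1 ligated cell holds 62.5% of the ligated UMIs. Bhlha15 measured 48.6 CPM in ligated acinar-like cells, against 53.4, 9.86 and 10.4 CPM in the mock libraries, from 6 UMIs in the ligated and 5, 5 and 10 UMIs in the mock libraries. The ligated value lay within the mock range. In the epithelial fit Aqp5 had a log2 fold change of -0.41 (SE 0.48, edgeR adjusted p = 0.711) and Bhlha15 one of -0.55 (SE 0.76, edgeR adjusted p = 0.756). Aqp5 lies at chr15:99590782-99594829 and Bhlha15 at chr5:144190286-144194441, both on the plus strand.

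Counted over the acinar-like cells, 4 of the 9 genes lay below all 3 mock libraries, 4 above and 1 within. Of 5079 genes with 10 or more UMIs in these cells, 8.09% lay below all 3 mock libraries and 60% above, so the share of the 9 genes that lay above was smaller than that of all genes. In the epithelial fit 4 of 9 lay below all 3 mock libraries and 5 within, against 11.9% of all genes tested below. The median log2 fold change of the 9 genes there was -1.07, against -0.02 over all genes tested.

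The products were not spread evenly over acinar-like cells. In the mock libraries most Dcpp-rich cells held little Mucl2. Taking 1% of a cell's UMIs in the 3 Dcpp genes as a bound, chosen after the values were seen, 1 ligated acinar-like cell was Dcpp-rich, against 4, 6 and 14 in mock 1, 2 and 3. Over the 24 mock cells the Dcpp genes held a median of 59.7% of a cell's UMIs and up to 90.8%, while Mucl2 held a median of 0.450%. The exceptions were 4 of the 24 with 10% or more Mucl2, in which 47.3%, 1.86%, 18.5% and 26.9% Dcpp stood beside 18.8%, 63.4%, 31.7% and 49.4% Mucl2. All 4 lay in mock 2 and mock 3, where doublets remain. The ligated Dcpp-rich cell had 3.87% Dcpp. Of the other acinar-like cells, 15 in the ligated library and 10, 55 and 81 in the mock libraries had 10% or more of their UMIs in Mucl2. These Mucl2-rich cells had a median of 1694 UMIs in the ligated library, against 5468.5, 7017 and 8394 in the mock libraries. Outside the 9 genes their median was 918 UMIs in the ligated library, against 1367, 1055 and 1313. Like shares are therefore not like counts per cell. In these cells the median Mucl2 share was 20.8% in the ligated library, against 48.9%, 61.4% and 60.5% in the mock libraries. The median Prol1 share was 6.37% in the ligated library, against 3.84%, 5.03% and 4.30% in the mock libraries, and the median Scgb1b27 share was 11.4% in the ligated library, against 14.6%, 10.4% and 11.4% in the mock libraries. Cells within a library share their source, and these are descriptions without a test.

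**Figure D3:**
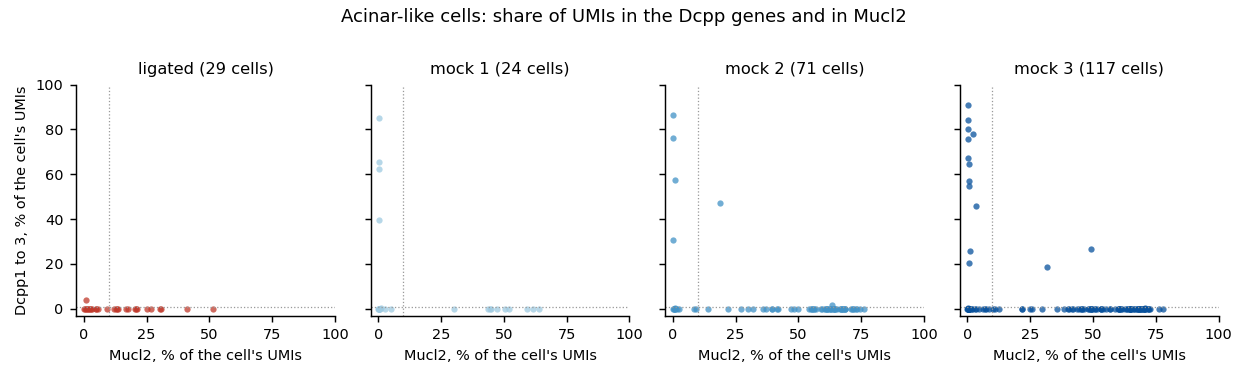
Each point is 1 acinar-like cell, with the percent of its UMIs in Mucl2 on the horizontal axis and in Dcpp1 to 3 on the vertical axis, 1 panel per library. Dotted lines mark 10% Mucl2 and 1% Dcpp. Most mock cells lie along one axis or the other, up to 90.8% Dcpp or 77.8% Mucl2, and the ligated library has 1 cell just over the Dcpp line and none above 51.5% Mucl2.

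Among acinar-like cells, the other gene called lower was found with the Dcpp-rich cells. Bpifa2, which encodes the parotid secretory protein and is one of the genes that lead the acinar-like cluster, measured 4.34 CPM in ligated epithelial-like cells, against 623, 383 and 486 CPM in mock 1, 2 and 3, and fell by 7.28 on the log2 scale (SE 0.62, edgeR adjusted p = 0.0112). The bound on Dcpp did not use Bpifa2. Among mock acinar-like cells, 1490 Bpifa2 UMIs lay in the 24 Dcpp-rich cells, against 2 in the 146 Mucl2-rich cells and 1 in the 42 others. Duct-like cells, which are part of the tested sum, held a further 0, 201 and 128 Bpifa2 UMIs in mock 1, 2 and 3. In the ligated library the Dcpp-rich cell had 1 Bpifa2 UMI, and the Mucl2-rich cells had 1. Car6 lay mostly in Mucl2-rich cells. In the ligated library Car6, a secreted carbonic anhydrase, had 4318 UMIs in Mucl2-rich cells and 0 in the Dcpp-rich cell, and in the mock libraries 13417 in Mucl2-rich and 140 in Dcpp-rich cells.

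The filter on cells removed many of the barcodes richest in these products, most of them for having under 300 genes (15 of the 17 Mucl2-rich barcodes removed from the ligated library, and 19 of 19, 73 of 74 and 102 of 104 from the mock libraries). Over all deposited barcodes with no filter, 3 ligated barcodes (0.0218%) had 1% or more of their UMIs in the Dcpp genes, against 14, 54 and 62 (0.292%, 0.561% and 0.470%) in mock 1, 2 and 3. One of these ligated barcodes, with 64.7% Dcpp, was removed by the filter, so a barcode of the mock kind was present in the ligated library. Barcodes over both bounds numbered 0 in the ligated library, against 0, 6 and 5 in the mock libraries. Doublets were not removed from these counts, and mock 2 and mock 3 held the most barcodes over each bound. The part of doublets was not tested. In all, barcodes with 10% or more Mucl2 numbered 32 in the ligated (0.232%) and 30, 151 and 212 in the mock libraries (0.625%, 1.57% and 1.61%). Both shares were lower in the ligated library than in every mock library. The counts of Dcpp3 UMIs over all barcodes were 604 in the ligated and 10233, 37947 and 41953 in the mock libraries.

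Over all cells, whatever their class, 7 of the 9 genes lay below all 3 mock libraries, against 31.9% of the 17526 genes tested, and none above, against 30.4%. Prol1 and Aqp5 lay within the mock range. Dcpp3 measured 4.79 CPM over all ligated cells and averaged 289 ± 54.0 CPM over the mock libraries (SD, n = 3). The log2 fold changes of Dcpp1, Dcpp2 and Dcpp3 were -5.45 (SE 0.71), -5.90 (SE 0.42) and -5.86 (SE 0.38), each with an edgeR adjusted p = 0.147. edgeR called 0 of 17526 genes here, 2596 had an unadjusted p under 0.05, and DESeq2 called 1252. Without mock 1, edgeR called 12343 of 17463 genes and 8 of the 9, so most genes were called there. Of the Dcpp UMIs that were left in the ligated library, 91.5% or more of each gene lay in non-epithelial cells, against 3.75% to 16.2% in the mock libraries.

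Duct-like cells held less of these products than acinar-like cells. In the ligated library Mucl2 and the Dcpp genes were at or below the lowest mock value, while Prol1 and the secretoglobins were within the mock range, close to mock 1 or above it. Mucl2 measured 1337 CPM in ligated duct-like cells, against 5161, 18656 and 28996 CPM in mock 1, 2 and 3. Dcpp3 measured 11.3 CPM in ligated duct-like cells, from 3 UMIs, against 35.6, 2988 and 1141 CPM in the mock libraries, where 1 cell gave 56.4% of the mock 2 and 46.7% of the mock 3 UMIs. Prol1 measured 627 CPM in ligated duct-like cells, against 240, 2419 and 3195 CPM in the mock libraries. Scgb1b27 measured 725 CPM in ligated duct-like cells, against 703, 3093 and 4690 CPM in the mock libraries. Dcpp1 and Dcpp2 had 0 UMIs in ligated duct-like cells, which allows up to 11.3 CPM at 3 counts. Of 6898 genes tested in duct-like cells, 118 were called (1.71%), and 7 of those were lower in the ligated library (0.101%). Of the 7 listed genes tested 0 were called by edgeR (4 had an unadjusted p under 0.05), and 3 lay below all 3 mock libraries, against 34.2% of all genes. Without mock 1, 366 of 7442 genes and all 7 were called. Without mock 2 it was 221 of 4104 genes and all 7, and without mock 3, 80 of 4169 genes and 1 of the 7. Ligated duct-like cells fell mainly in a sub-cluster led by S100a6, Clu, Mgp, Ccl5, Klk1, Cyp2f2, Col3a1, Cxcl17, Gzmc and Rac2. It held 213 ligated cells, against 6, 7 and 8 cells of mock 1, 2 and 3. Mock duct-like cells fell mainly in others, so the class differs in its make-up between the groups. Markers of natural killer (NK) or ILC1 cells summed to 436 CPM in ligated duct-like cells, against 35.6, 6.98 and 11.3 CPM in the mock libraries. The part of RNA from other cell types in this sub-cluster was not tested. In basal or myoepithelial-like cells Mucl2 measured 1332 CPM in the ligated and 362, 1180 and 3397 CPM in the mock libraries.

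UMIs of Mucl2, Prol1 and the secretoglobins were found in cells of every class. Empty droplets were not analysed here and doublets remain in mock 2 and mock 3, so the part of free RNA in these UMIs was not tested. Of all non-epithelial cells, 0 in the ligated library and 0, 3 and 8 in the mock libraries had 10% or more of their UMIs in Mucl2. The Dcpp genes were at 0 in ligated B-like, ILC2-like and erythroid-like cells, with exact 95% Poisson intervals reaching 104, 8.81 and 7.22 CPM. Their mock values there were at most 21.8, 11.7 and 38.5 CPM. Mock 1 was also at 0 in B-like and ILC2-like cells. Endothelial-like cells, the largest class that should lack them, had Mucl2 at 317 CPM in the ligated library, against 289, 1410 and 1934 CPM in mock 1, 2 and 3. Scgb1b27 measured 95.3 CPM in ligated endothelial-like cells, against 57.6, 236 and 354 CPM in the mock libraries. Prol1 measured 62.2 CPM in ligated endothelial-like cells, against 26.6, 200 and 234 CPM in the mock libraries. The ligated library was close to mock 1 or above it, and mock 2 and mock 3 were higher. After thinning each cell to 2000 UMIs, 45.0% of ligated endothelial-like cells had a Mucl2 UMI, against 39.9%, 87.0% and 86.1% in the mock libraries. Without thinning, 70.9% of all non-epithelial cells had one in the ligated library, against 66.6%, 98.3% and 96.1% in the mock libraries. The source of the Mucl2 UMIs in non-epithelial cells was not tested.

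**Figure D4:**
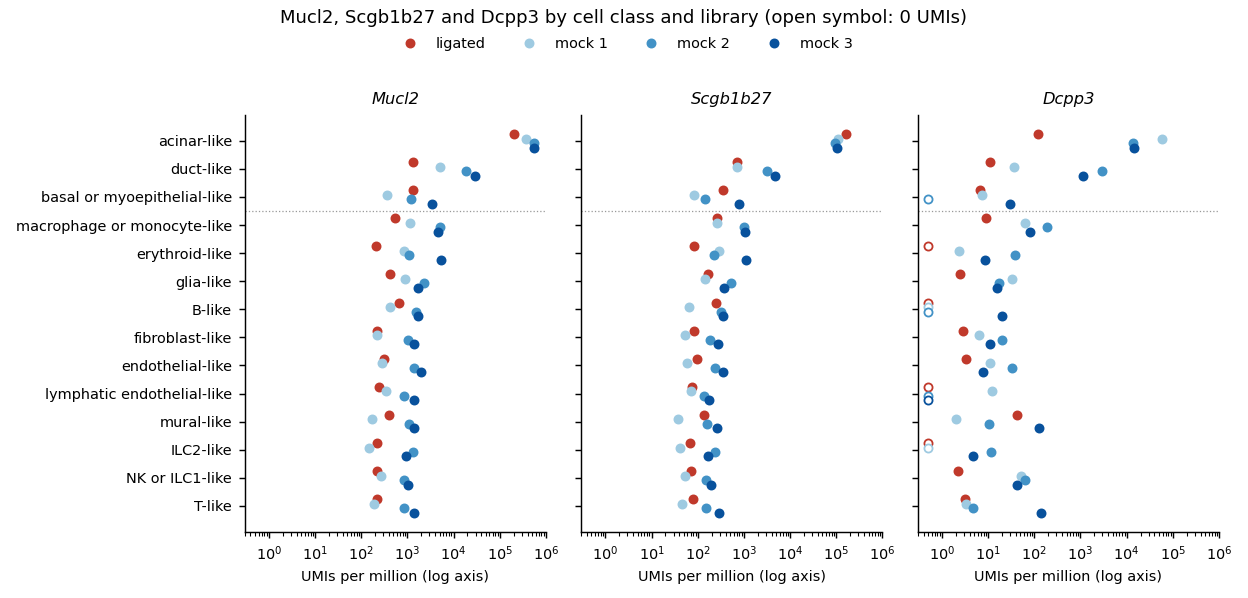
CPM on a log axis of Mucl2, Scgb1b27 and Dcpp3 in each cell class, with the ligated library in red and the 3 mock libraries in blue. Open symbols mark 0 UMIs, and classes below the dotted line are not epithelial. Mucl2 and Scgb1b27 fall by orders of magnitude outside acinar-like cells and then differ by library, with mock 2 and mock 3 above the ligated library in every class below the line for Mucl2.

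Among non-epithelial classes with 30 or more cells in each library, macrophage or monocyte-like cells had the highest Mucl2 level in the ligated library, mock 1 and mock 2, and erythroid-like cells, at 5262 CPM, in mock 3. The mock 3 value rests on 1 cell, which held 4066 of the 7978 Mucl2 UMIs. Without it these erythroid-like cells measured 2596 CPM, below the macrophage or monocyte-like cells. In macrophage or monocyte-like cells Mucl2 measured 538 CPM in the ligated library, against 1129, 5085 and 4566 CPM in the mock libraries. For Mucl2, the level in all non-epithelial cells was 0.753% of the level in epithelial-like cells in the ligated library, against 0.385%, 0.681% and 0.655% in the mock libraries. For Dcpp3 it was 15.7% in the ligated library, against 0.141%, 0.627% and 0.370% in the mock libraries. So little Dcpp3 was left in the ligated epithelium that the level in all non-epithelial cells came within an order of magnitude of it. Single cells can make such a value. In mural-like cells Dcpp3 measured 41.3 CPM in the ligated library and 2.67 CPM without 1 cell that held 93.5% of its UMIs. In T-like cells Dcpp3 measured 138 CPM in mock 3 and 4.52 CPM without 1 cell.

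Relative to Mucl2, the secretoglobins and Prol1 were higher in the ligated library both in acinar-like cells and in most non-epithelial classes. In ligated acinar-like cells there were 79.9 Scgb1b27 UMIs per 100 Mucl2 UMIs, against 29.4, 16.7 and 18.4 in mock 1, 2 and 3. In ligated endothelial-like cells there were 30.1, against 19.9, 16.8 and 18.3 in the mock libraries. Of 11 non-epithelial classes, 11 had a Scgb1b27 ratio above all 3 mock libraries in the ligated one, ranging from 29.8 to 47.6 there and from 13.2 to 34.6 over the mock libraries. Prol1 per 100 Mucl2 UMIs was 29.9 in ligated acinar-like cells, against 7.28, 8.60 and 7.78 in the mock libraries, and in 10 of 11 non-epithelial classes the ligated ratio was above all 3 mock ratios. Scgb2b27 per 100 Mucl2 UMIs was 32.1 in ligated acinar-like cells, against 13.2, 6.90 and 6.98 in the mock libraries, with 10 of 11 classes above. The exception for both was the B-like class, with 12 ligated cells. The classes of a library share its source and are not replicates, so these counts describe 4 libraries. Without the deepest acinar-like cell of each library, the 2 secretoglobins together stood at 77.0 per 100 Mucl2 UMIs in the ligated library, against 44.8, 23.9 and 25.7 in the mock libraries, and Prol1 at 29.8 in the ligated library, against 8.09, 8.92 and 7.97. Cell by cell in the Mucl2-rich acinar-like cells, the median of the 2 secretoglobins was 66.4 per 100 Mucl2 UMIs in the ligated library, against 41.6, 24.7 and 27.3 in the mock libraries, and the median of Prol1 was 19.8 in the ligated library, against 7.88, 9.04 and 7.57.

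**Figure D5:**
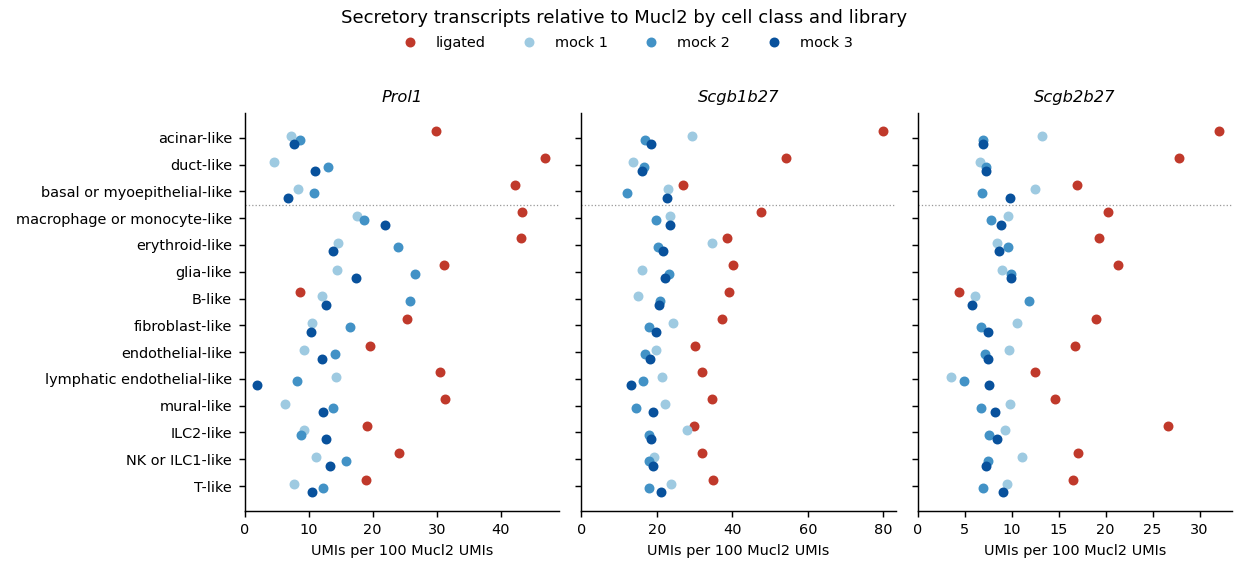
UMIs of Prol1, Scgb1b27 and Scgb2b27 per 100 Mucl2 UMIs in each cell class, with the ligated library in red and the mock libraries in blue. Classes below the dotted line are not epithelial. The ligated library lies to the right of all 3 mock libraries in every class for Scgb1b27, and in all but the B-like class for Prol1 and Scgb2b27.

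In the fit over non-epithelial cells, edgeR called 0 of 17194 genes (0%), 2718 (15.8%) had an unadjusted p under 0.05 and DESeq2 called 1252. Without mock 1, edgeR called 12356 of 17137 genes, all 8 tested of the 9 among them, 7 lower and Aqp5 higher. With most genes called, this is not a result about the 9. Of the 9 genes 8 could be tested, 3 of them had an unadjusted p under 0.05, and 4 lay below all 3 mock libraries and 1 above, against 32.1% and 30.9% of all genes. Mucl2 had a log2 fold change of -1.98 (SE 1.14, edgeR adjusted p = 0.438) and Dcpp2 one of -2.51 (SE 0.50, edgeR adjusted p = 0.175). The gene above was Aqp5, at 0.785 CPM in the ligated and 0.111, 0.313 and 0.368 CPM in the mock libraries, with a log2 fold change of 1.60 (SE 0.76, edgeR adjusted p = 0.391). Its ligated UMIs lay largely in fibroblast-like cells, which were looked at after the values were seen, where 31 of 1409 cells had one, against 0 of 206, 0 of 425 and 1 of 577 in mock 1, 2 and 3. Of these 31 cells, 30 were in 1 cluster, which held 1155 of the 1409 ligated fibroblast-like cells but 68, 35 and 54 mock cells. Most mock fibroblast-like cells (125, 384 and 515) lay in another cluster, so the class differs in its make-up between the groups. The median Mucl2 count of the 31 cells was 1 UMI, the same as in all ligated fibroblast-like cells. Their median depth was 13006 UMIs, against 8642 in all ligated fibroblast-like cells. An epithelial marker UMI was found in 13 of the 31, against 16.04% of all ligated fibroblast-like cells. The part of epithelial RNA in this result was not tested.

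Other genes of secretion had smaller fold changes than the Dcpp genes. Of 12 other acinar secreted proteins, 7 were tested in epithelial-like cells, 1 rose, 1 fell and their median log2 fold change was -0.86, against -0.02 over all genes. The one that fell was Bpifa2. The one that rose was Lpo, the salivary lactoperoxidase, at 89.6 CPM in the ligated and 11.1, 7.38 and 8.51 CPM in the mock libraries, with a log2 fold change of 2.80 (SE 0.37, edgeR adjusted p = 0.0425). The call rests on few cells, since 58 of the 60 Lpo UMIs of ligated acinar-like cells lay in 4 Mucl2-rich cells, and the mock acinar-like cells had 4, 11 and 16 UMIs. Scgb2b26, a further secretoglobin, had a log2 fold change of -0.86 (edgeR adjusted p = 0.660), Car6 one of 0.45 (adjusted p = 0.736) and Pip one of -1.64 (adjusted p = 0.332). Of 8 fluid secretion genes 7 were tested and none was called, with a median log2 fold change of 0.19. Among them Slc12a2, the basolateral cotransporter that loads chloride, measured 103 CPM in the ligated and 155, 26.2 and 42.1 CPM in the mock libraries. Of 14 genes of the secretory machinery 12 were tested and none was called, with a median of 0.32, and 10 lay above and 2 below all 3 mock libraries, against 48.8% and 11.9% of all genes. Hspa5, the endoplasmic reticulum chaperone BiP, measured 260 CPM in the ligated and 133, 66.4 and 41.0 CPM in the mock libraries (log2 fold change 1.34, edgeR adjusted p = 0.256). Xbp1, a transcription factor of the secretory pathway, measured 114 CPM in the ligated and 53.2, 26.8 and 40.0 CPM in the mock libraries (log2 fold change 1.03, edgeR adjusted p = 0.339).

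Markers of the other epithelial types are part of the same sums. Of 12 duct genes 11 were tested and none was called (median log2 fold change 0.13), and Klk1, the tissue kallikrein of granular duct cells, measured 34504 CPM in the ligated and 14545, 27613 and 21844 CPM in the mock libraries. Of 8 basal and myoepithelial genes 7 were tested and none was called, with a median of 1.14, and Krt14 measured 839 CPM in the ligated and 220, 61.0 and 51.1 CPM in the mock libraries. Their part in the values of the acinar genes was not tested. Over 44 sums of class by library, the genes whose level was most like the mean of the 9 were Scgb2b26 and Pip (Pearson r of 0.98 each), Wfdc12, a protease inhibitor (0.94), Car6 (0.92), Bpifa2 (0.92), A630073D07Rik (0.89), Ccl28, a mucosal chemokine (0.88), the major urinary protein genes Mup6 and Mup4 (0.87 each) and Spdef, an ETS transcription factor (0.86). These sums share libraries, and the likeness is a description.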

How the data were processed

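The 4 libraries were made by droplet single-cell RNA sequencing (10x Genomics, per the labels). The authors deposited raw UMI counts per gene and cell barcode. Per the submitters' processing notes reads were processed with Cell Ranger 7.0.1 on mm10, whereas the file headers name 6.0.1 (ligated, mock 1) and 7.0.0 (mock 2, mock 3). The members and lists were chosen with earlier results of these data known.

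Barcodes with at least 500 UMIs, 300 genes and at most 15% mitochondrial UMIs were kept, leaving 13304 ligated barcodes, against 4589, 9251 and 12699 from the mock glands. Median depth over all deposited barcodes was 4617 UMIs in the ligated library and 5413.5, 4096 and 3507.5 in the mock libraries. Scrublet called 739 doublets in the ligated library and 75 in mock 1, which were removed, and 0 in mock 2 and in mock 3, where the caller had not worked. Doublets therefore remain there. Cells were clustered with scanpy 1.11.5 (2000 variable genes without the 9 genes, 30 components, 15 neighbours, Leiden resolution 1.0) and named from marker lists. The use of acinar, duct and basal lists for main clusters, and the scoring, were chosen after the clusters were seen. Clusters that mixed markers stayed unnamed.

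Counts were summed per library and class and tested with edgeR 4.0.16 (TMM, filterByExpr, quasi-likelihood test, 2 residual degrees of freedom from the mock libraries). The standard error is the log2 fold change over the square root of F. A class with under 30 cells in any library was not tested. On simulated counts with 200 genes changed by 3 on the log2 scale, the epithelial step called 200 of 200, with 11 unchanged genes of 8616 called. In the data Mucl2, at -2.97 in the epithelial fit, was not called, so the simulated counts do not give the power of the test here. Thinning drew 2000 UMIs per cell without replacement, leaving out shallower cells (766 of the ligated and 169, 327 and 797 of the mock endothelial-like cells). Intervals are exact 95% ones and cover counting error only. Named genes were all 9, the called members or 4 highest of each other list, and the 10 most alike by Pearson r of log2(CPM + 10). Gene positions are from GENCODE vM21 (mm10).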

Additional observations from a re-analysis of the deposited data

How the results depend on the processing

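No paired analysis was possible because the ligated group has 1 library, so the groups share at most 1 replicate number. Other settings for tests in acinar-like cells were not run, since that class had under 30 cells in 2 libraries. The fold changes of the Dcpp genes in epithelial-like cells kept their direction under every alternative run and their call under all but the marker gate. Counts of called genes moved far more. In epithelial-like cells edgeR called 46 genes, 906 with a term for the Cell Ranger version, 15 under the marker gate and 326 without the low count filter, and DESeq2 called 67. Of the 9 genes, 3 were called, 5 with the version term and 0 under the gate. Leaving out 1 mock library gave 39 to 2519 genes and 3 to 7 of the 9, with the highest counts without mock 1. In non-epithelial cells 0 genes were called, 8580 with the version term (7 of the 9), 1252 by DESeq2 (2 of the 9), 1 without the filter, and 0 to 12356 when 1 mock library was left out (0 to 8 of the 9), the highest without mock 1. Over all cells 0 were called, 8336 with the version term (5 of the 9), 1252 by DESeq2 (4 of the 9), 1 without the filter, and 0 to 12343 when 1 mock library was left out (0 to 8 of the 9), the highest without mock 1. With the version term the contrast rests on the ligated library against mock 1. Both with this term and without mock 1, the spread comes from mock 2 and mock 3 alone. Without mock 1 the called genes were 12356 of 17137 tested in non-epithelial cells and 12343 of 17463 over all cells. With the version term they were 8580 of 17194 and 8336 of 17526. Counts of the 9 called in these fits are therefore not a result about the 9 apart from other genes.

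Signs turned for genes that were not called with all 4 libraries. Without mock 1, Prol1 was called lower in epithelial-like and non-epithelial cells (log2 fold change -1.52 and -1.53), over all cells (-2.27) and in duct-like cells (-2.20), while the version term called it higher in all 4. The same held for Scgb2b27 and Scgb1b27 in non-epithelial cells (-1.20 and -1.50 without mock 1). With the version term the log2 fold change in epithelial-like cells was 0.87 for Prol1 (edgeR adjusted p = 0.0299), 0.076 for Scgb2b27, 0.24 for Scgb1b27 and 0.25 for Aqp5. In non-epithelial cells it was 1.18 for Prol1 (edgeR adjusted p = 6.57e-08), 0.74 for Scgb2b27 and 0.59 for Scgb1b27, which were also called (edgeR adjusted p = 0.00172 and 0.0123). Over all cells it was 0.58 for Prol1 (edgeR adjusted p = 0.00582) and 0.59 for Aqp5, and in duct-like cells, a class fitted alone after the data were seen, 1.49 for Prol1 (edgeR adjusted p = 1.17e-10), 0.23 for Scgb2b27 and 0.15 for Scgb1b27. At Leiden resolution 0.5 it was 0.10 for Scgb2b27, 0.12 for Scgb1b27, 0.43 for Aqp5 and 0.49 for Bhlha15 in epithelial-like cells. The cause of these changes was not tested. Depth limits Aqp5 and Bhlha15, with at most 106 and 17 UMIs in the epithelial-like cells of any library. The sums without cells of 1% or more member UMIs, over all deposited barcodes, without the ligated cell highest in a gene and at other resolutions for acinar-like cells were also added after the data were seen.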
